A study of Rattus norvegicus with 4 samples.

Results

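The genes described here encode the proteins of pre-mRNA splicing that carry a family name: the SR proteins, the hnRNP proteins, the proteins of the small nuclear ribonucleoproteins (snRNPs), the SF3 and PRPF proteins, the U2AF subunits, the RBM proteins and the regulators of the RBFOX, CELF, NOVA, MBNL, PTBP, ESRP and SRRM families. They were chosen by a rule that reads only the current rat gene symbol and no measured value. The rule was set with earlier results of these data known. It takes symbols that start with Srsf, Hnrn, Snrp, Sf3a or Sf3b, Prpf, U2af, Rbm, Rbfox, Celf, Nova, Mbnl, Ptbp, Esrp or Srrm. The rule took 104 of the 12323 named genes on the array, by 157 of its 33849 gene probes.

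The samples were taken by laser capture in the crista ampullaris of rats, the sensory epithelium of a semicircular canal, on 4 single-colour oligonucleotide arrays. The supporting cell layer (the supporting layer below, 2 arrays) holds the cell bodies that rest on the basal lamina and was captured second. The hair cell layer (the hair layer below, 2 arrays) was captured first and consists of hair cells of types I and II, the cytoplasm of supporting cells that lies among them, and the calyx nerve endings by which hair cells were recognised. Strain, age and sex of the rats, and any pooling of animals, are not given in the sources used here, and no treatment or genotype is named for either layer. Each capture is a mixture of cells chosen by shape, so neither layer is a pure cell type, and fewer cells of a type and less RNA per cell cannot be told apart in any value below. Nothing in the labels tells whether the arrays within a layer stem from different animals or captures, so the p-values reflect only how far these samples vary among themselves, and that variation may be technical.

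Splicing removes introns in a large complex that is rebuilt on every intron. The U1 snRNP recognises the 5′ splice site, the U2AF dimer and the U2 snRNP with its SF3 subunits recognise the 3′ end of the intron and the branch site, and the tri-snRNP then brings in the catalytic RNAs. SR proteins bind mostly in exons and favour their inclusion, hnRNP proteins often oppose them, and regulators such as RBFOX, CELF and ESRP proteins shift the choice of exons in neurons, muscle or epithelia. In mouse and zebrafish ear, hair cells depend on splicing regulators of their own, of which Srrm3, Srrm4 and Rbm24 are examples. Srrm3 and Srrm4 had no named probe here.

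The arrays separated the layers at their labelled cell types only in part. Of 14 tested hair cell markers, 0 were higher in the supporting layer and 12 in the hair layer, and their summed normalized intensity was 5906 and 5743 in the supporting layer against 13145 and 14001 in the hair layer. Among the 14 supporting cell markers tested, 6 were called for each layer. Their summed intensity was 18497 and 18889 in the supporting layer against 20328 and 20505 in the hair layer. Replicate arrays correlated at r = 0.994 in the supporting layer and 0.993 in the hair layer over the 11059 probes above background on every array, and probes are not independent of each other. The share of gene probes above background was 39.8% and 39.7% on the supporting layer arrays against 48.8% and 45.6% on the hair layer arrays.

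Values below are normalized intensities, and changes are log2 differences, supporting layer minus hair layer, given with the standard error (SE) of the fit, so that those below 0 stand for more signal in the hair layer. A gene was called when limma's adjusted p, by Benjamini-Hochberg over all 16483 tested probes, was under 0.05. A gene stands at the brightest of its tested probes, and intensities of different probes are not compared. Of the 157 probes, 81 were detected on all 4 arrays, 14 on 2 or 3, 9 on 1 and 53 on none. The 95 probes detected on at least 2 arrays were tested and gave 74 tested genes. The other 30 genes had no tested probe, 25 of them with no probe detected on any array. Among the tested genes 5 had passed through 1 layer only, being not above background on both arrays of the other. At the brightest probe the layers did not overlap for 65 of the 74 tested members. That share was not computed over all genes, so separate layers are given below as description and not as support for a call.

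Splicing genes went both ways. In the supporting layer 24 tested members were higher, in the hair layer 21 were higher, and 29 were not called. Among all 7768 tested genes 65.4% were called, 28.2% higher in the supporting layer and 37.2% higher in the hair layer. The members' shares, 60.8%, 32.4% and 28.4%, lay near this background, so the counts do not set them apart. Their changes were of moderate size: 16 of 74 (21.6%) were called with a fitted change of at least 2-fold, against 33.6% of all tested genes. The median change was 0.14 for the members and -0.10 for all tested genes, and the median size without sign was 0.53 and 0.70. Members were more often detected on all 4 arrays, 87.8% against 74.0% of tested genes, and no test was made of these differences. Without hair layer replicate 1, 13 members were higher in the supporting layer and 12 in the hair layer, and without hair layer replicate 2 these counts were 15 and 11. Over all tested genes the same fits called 1425 and 1734, and 1508 and 1727. With values as scaled by the scanner software the members' counts were 10 and 7, beside 1053 and 1606 of all tested genes.

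**Figure D1:**
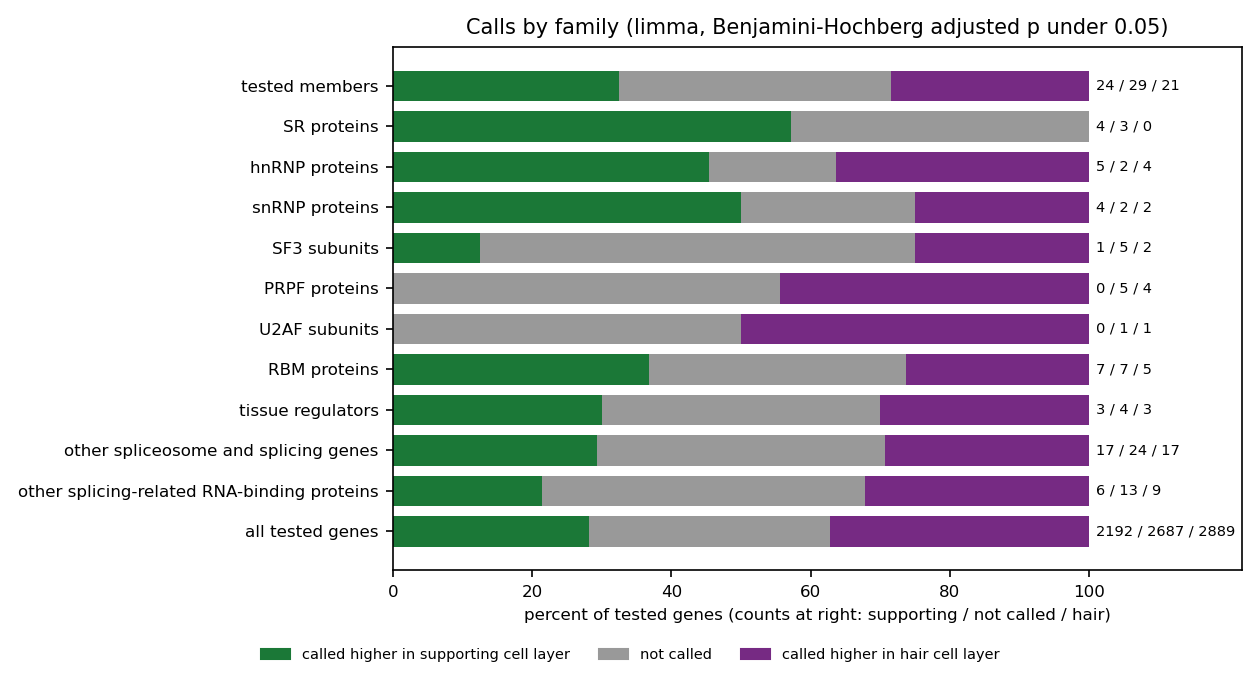
Share of tested genes called higher in the supporting layer (green), not called (grey) and called higher in the hair layer (purple), in percent, for the members, each family, the 2 lists of other splicing genes and all tested genes; the counts stand at the right of each bar. No SR protein is called higher in the hair layer and no PRPF protein higher in the supporting layer, while the other families of over 2 tested genes have calls in both directions.

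The SR proteins, which carry arginine- and serine-rich domains and recruit U1 and U2AF to weak splice sites, had their calls in the supporting layer. Of 7 tested members 4 were higher there, 0 were higher in the hair layer and 3 were not called, with a median change of 0.72. Their 57.1% stands beside 28.2% of all tested genes, over a family of 7. Srsf2, also known as SC35 and a component of nuclear speckles, read 2707 and 2605 in the supporting layer against 1058 and 1066 in the hair layer. Srsf6 read 1091 and 1197 in the supporting layer against 512 and 506 in the hair layer. Srsf1, the founding SR protein, read 619 and 665 in the supporting layer against 312 and 298 in the hair layer. For all 3 genes both supporting layer arrays lay well above both hair layer arrays. The changes were 1.32 ± 0.07 for Srsf2 (adjusted p = 0.00184, limma), 1.17 ± 0.09 for Srsf6 (adjusted p = 0.00282) and 1.07 ± 0.08 for Srsf1 (adjusted p = 0.00303). Srsf1 has a second, dimmer probe that did not share the difference: it read 200 and 192 in the supporting layer against 231 and 229 in the hair layer, a change of -0.23 that was not called (adjusted p = 0.0593). Srsf5 read 496 and 415 in the supporting layer against 291 and 261 in the hair layer, again without overlap, a change of 0.72 ± 0.13. Its call was lost without hair layer replicate 1 (adjusted p = 0.0732) or replicate 2 (adjusted p = 0.0953), whereas those of Srsf1, Srsf2 and Srsf6 held when each array was left out. The 3 members not called ranged between -0.20 and 0.52, and Srsf10, Srsf11 and Srsf12 had no tested probe.

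The kinases that phosphorylate SR proteins are among the other splicing genes and are named here after their values were seen. Clk1 read 302 and 271 in the supporting layer against 87.0 and 93.5 in the hair layer, a change of 1.66 ± 0.10. Srpk2 (1.13 ± 0.09) and Clk2 (0.88 ± 0.13) were also called higher in the supporting layer. Clk3 (0.28 ± 0.12) and Srpk1 (0.15 ± 0.22) were not called. Tra2b, an SR-like activator that works beside the SR proteins, had the opposite direction: it read 48.2 and 43.8 in the supporting layer against 171 and 156 in the hair layer, a change of -1.83 ± 0.10.

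The promoters of the SR genes with the largest changes are shown beside those of 2 members with a large change toward the hair layer, Prpf6 and Celf5, described further below. Each window runs over 250 bases before to 50 bases after the start that RefSeq annotates on the GRCr8 build, read 5′ to 3′ along the gene: Srsf1 at chr10:73336248-73336547 on the plus strand, Srsf2 at chr10:102554092-102554391 on the minus strand, Srsf6 at chr3:172008822-172009121 on the plus strand, Prpf6 at chr3:189084215-189084514 on the plus strand and Celf5 at chr7:8876335-8876634 on the plus strand. Capitals mark matches on either strand to the Sp1 box GGGCGG, the CCAAT box CCAAT, the ETS motif CCGGAAG and the TATA box TATAAA.
Srsf1: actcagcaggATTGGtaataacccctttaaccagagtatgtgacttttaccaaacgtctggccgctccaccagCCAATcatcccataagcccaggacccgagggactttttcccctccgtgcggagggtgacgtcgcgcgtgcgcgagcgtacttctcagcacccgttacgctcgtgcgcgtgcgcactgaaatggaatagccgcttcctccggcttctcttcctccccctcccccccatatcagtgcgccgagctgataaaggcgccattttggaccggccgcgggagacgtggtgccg
Srsf2: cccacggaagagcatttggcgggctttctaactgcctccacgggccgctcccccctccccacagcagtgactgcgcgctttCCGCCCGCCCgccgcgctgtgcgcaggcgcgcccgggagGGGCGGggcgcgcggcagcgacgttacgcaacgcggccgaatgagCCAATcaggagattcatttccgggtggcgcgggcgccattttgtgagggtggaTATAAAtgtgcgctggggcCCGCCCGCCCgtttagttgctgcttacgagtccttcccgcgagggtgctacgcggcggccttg
Srsf6: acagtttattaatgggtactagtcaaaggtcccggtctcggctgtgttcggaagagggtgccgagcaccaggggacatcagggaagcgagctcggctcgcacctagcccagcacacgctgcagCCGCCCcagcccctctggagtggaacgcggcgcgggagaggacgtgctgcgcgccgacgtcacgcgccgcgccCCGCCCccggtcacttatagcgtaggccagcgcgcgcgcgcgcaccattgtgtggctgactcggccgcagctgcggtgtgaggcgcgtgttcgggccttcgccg
Prpf6: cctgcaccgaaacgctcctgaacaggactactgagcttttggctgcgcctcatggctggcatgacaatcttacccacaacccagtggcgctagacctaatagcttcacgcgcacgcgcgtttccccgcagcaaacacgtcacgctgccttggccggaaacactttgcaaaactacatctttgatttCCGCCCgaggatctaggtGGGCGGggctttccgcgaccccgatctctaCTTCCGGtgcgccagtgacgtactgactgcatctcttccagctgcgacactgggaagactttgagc
Celf5: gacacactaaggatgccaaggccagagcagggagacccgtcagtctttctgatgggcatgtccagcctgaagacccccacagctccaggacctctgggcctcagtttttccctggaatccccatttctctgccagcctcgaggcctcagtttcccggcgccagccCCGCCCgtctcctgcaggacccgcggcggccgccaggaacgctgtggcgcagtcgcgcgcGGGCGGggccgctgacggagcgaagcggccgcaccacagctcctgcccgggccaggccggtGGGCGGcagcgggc
Srsf1 held 2 CCAAT boxes and none of the other motifs searched. Srsf2 held 5 Sp1 boxes, of which 2 pairs overlap, with 1 CCAAT box and 1 TATA box. Srsf6 held 2 Sp1 boxes, Prpf6 held 2 Sp1 boxes and 1 ETS motif, and Celf5 held 3 Sp1 boxes. Windows were found for 92 of the 104 members. The CCAAT box was in 52.2% of the members' windows, 37.7% of all 27457 windows and 37.5% of those of tested genes. The ETS motif was in 22.8% of the members' windows, 9.22% of all windows and 18.4% of those of tested genes, and the Sp1 box was in 48.9%, 34.9% and 62.6%. The TATA box was in 8.7% of the members' windows, 14.3% of all windows and 6.76% of those of tested genes. The NRF1 palindrome was in 2.17%, 0.932% and 1.94%. These are descriptions of short strings, with no site or cause implied, and among members with a window a CCAAT box was in 12 of 23 called higher in the supporting layer and 6 of 19 called higher in the hair layer.

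Other cell types had marker differences between the layers too, in both directions. The summed intensity of the endothelial and pericyte markers with a value on every array (7 of 12 listed) was 1492 and 1500 in the supporting layer against 500 and 574 in the hair layer, and that of the connective tissue markers (6 of 10 listed) was 2299 and 2357 in the supporting layer against 991 and 1006 in the hair layer. All 7 endothelial and pericyte markers were detected on both supporting layer arrays. Within these lists Vwf (-2.48 ± 0.16) and Fbn1 (at least 1.36-fold) were higher in the hair layer. Summed immune cell markers (6 of 10 listed) were 325 and 297 in the supporting layer against 463 and 480 in the hair layer. Among them Aif1 read 13.0 and 1.65 in the supporting layer, not above background, against 171 and 173 in the hair layer. Of 8 tested immune cell markers 3 were called for each layer. Cd74, Csf1r and Tyrobp were higher in the supporting layer, and Aif1, C1qa and Cd68 in the hair layer. Blood cell markers (4 of 8 listed) summed to 262 and 254 in the supporting layer against 61.9 and 98.0 in the hair layer. The part of these cell types, and of the hair cells whose markers are given above, in the splicing genes was not tested.

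**Figure D2:**
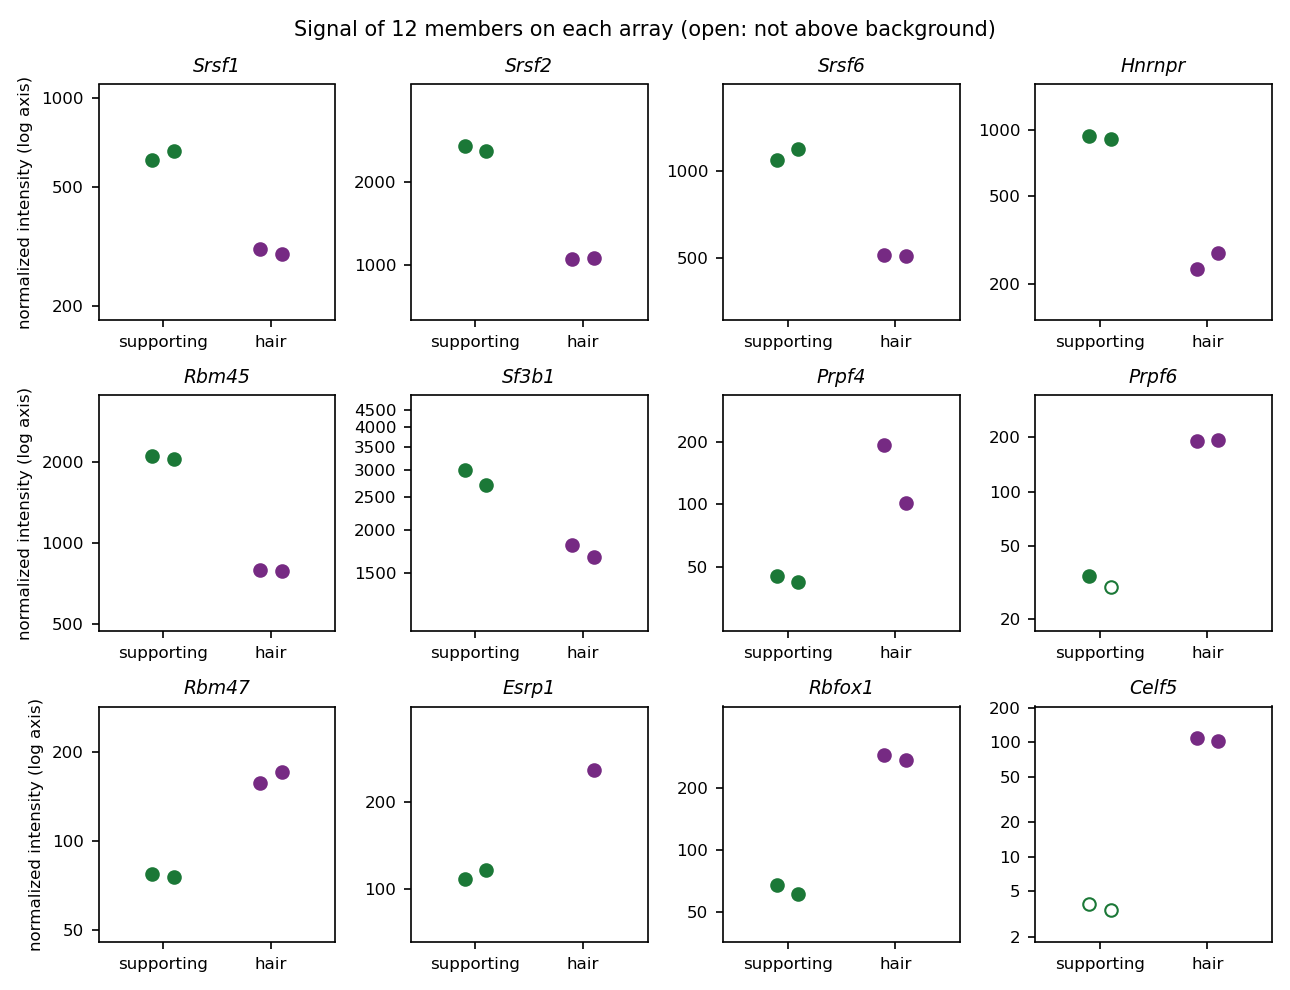
Normalized intensity (log axis, 1 scale per panel) of 12 members on each array, the supporting layer at the left of each panel (green) and the hair layer at the right (purple), 1 point per array; open points are not above background, and 1 hair layer spot of Esrp1 was left out. Srsf1, Srsf2, Srsf6, Hnrnpr, Rbm45 and Sf3b1 lie higher on both supporting layer arrays, and Prpf4, Prpf6, Rbm47, Esrp1, Rbfox1 and Celf5 lie higher on the hair layer arrays shown.

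The hnRNP proteins coat nascent transcripts and often silence exons. Of 11 tested members 5 were higher in the supporting layer, 4 were higher in the hair layer and 2 were not called. Their 45.5% and 36.4% stand beside 28.2% and 37.2% of all tested genes, over a family of 11. All but 1 of the changes were under 2-fold. The exception was Hnrnpr, which is known for carrying mRNA in motor neuron axons and read 935 and 905 in the supporting layer against 233 and 276 in the hair layer. Both supporting layer arrays lay far above both hair layer arrays, and the change was 1.86 ± 0.12 (adjusted p = 0.00227, limma). Its closest relative, Syncrip (hnRNP Q), is a gene of the second list of other RNA-binding proteins and had the opposite direction. Syncrip read 186 and 153 in the supporting layer against 622 and 650 in the hair layer, a change of -1.91 ± 0.13. Whether either probe also binds the other's transcript was not tested.

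Hnrnpm read 2173 and 2270 in the supporting layer against 1440 and 1256 in the hair layer, a change of 0.72 ± 0.11, and its second probe had the same direction at 0.71 ± 0.11. Both were called. Smaller changes toward the supporting layer were called for Hnrnpa3 (0.40 ± 0.08) and Hnrnpdl (0.35 ± 0.09). Toward the hair layer the calls were Hnrnpd, or AUF1, which promotes decay of mRNA with AU-rich elements (-0.51 ± 0.07), Hnrnpul1 (-0.34 ± 0.07), Hnrnpa2b1 (-0.33 ± 0.08) and the nuclear scaffold protein Hnrnpu (-0.26 ± 0.07). All but that of Hnrnpm rested on having every array or nearly so. Hnrnpa2b1, Hnrnpdl, Hnrnpu and Hnrnpul1 lost theirs whichever array was left out (adjusted p between 0.0621 and 0.127), and Hnrnpa3 lost it without hair layer replicate 1, hair layer replicate 2 or supporting layer replicate 2 (0.109, 0.0795 and 0.078). Hnrnpd lost it without hair layer replicate 2 (0.0534). Hnrnpr and Hnrnpm kept theirs. Hnrnpk, which binds cytosine-rich RNA, read 1349 and 1305 in the supporting layer against 1357 and 1260 in the hair layer, so the layers overlapped (change 0.02 ± 0.08, not called). The 2 probes of Hnrnpa1, the best known splicing silencer, were not above background on any array, so no difference was detectable.

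The core proteins of the snRNPs were also divided. Of 8 tested Snrp genes 4 were higher in the supporting layer, 2 were higher in the hair layer and 2 were not called, none by as much as 2-fold. The Sm proteins form the ring on each spliceosomal snRNA. Of 5 tested members of this core 3 were higher in the supporting layer and 1 in the hair layer. Snrpb read 228 and 225 in the supporting layer against 142 and 146 in the hair layer, and Snrpe read 211 and 202 in the supporting layer against 348 and 342 in the hair layer. Neither pair overlapped, and the changes were 0.65 ± 0.07 for Snrpb and -0.74 ± 0.07 for Snrpe, so that 2 subunits of 1 ring differed in opposite directions. Snrpg (0.55 ± 0.07) and Snrpf (0.41 ± 0.09) went with Snrpb, as did Snrpc, the U1 subunit that stabilises pairing at the 5′ splice site (0.58 ± 0.09). Snrpa1, a U2 subunit, was higher in the hair layer (-0.53 ± 0.11). The calls of Snrpb and Snrpe held when each array was left out. That of Snrpg was lost without hair layer replicate 1 (adjusted p = 0.053), that of Snrpc without hair layer replicate 1 or 2 (0.0676 and 0.0504), that of Snrpf without hair layer replicate 1, hair layer replicate 2 or supporting layer replicate 2 (0.11, 0.0833 and 0.0767), and that of Snrpa1 without hair layer replicate 1, hair layer replicate 2 or supporting layer replicate 1 (0.113, 0.0776 and 0.0703).

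SF3A and SF3B anchor the U2 snRNP at the branch site. Of 8 tested subunits 1 was higher in the supporting layer, 2 were higher in the hair layer and 5 were not called. These 12.5% and 25.0% stand beside 28.2% and 37.2% of all tested genes. Sf3b1, the large subunit that holds the branch site, read 3007 and 2722 in the supporting layer against 1814 and 1671 in the hair layer. Sf3b6, a small subunit of the same complex that lies near the branch point adenosine, read 112 and 111 in the supporting layer against 218 and 224 in the hair layer. Both pairs of arrays were separate, in opposite directions: the change was 0.72 ± 0.10 for Sf3b1 and -0.98 ± 0.07 for Sf3b6. Sf3a2 was higher in the hair layer as well (-0.69 ± 0.08). Without hair layer replicate 2 the adjusted p of Sf3b1 was 0.0545, and the other 2 calls held when each array was left out. Sf3a1, named after its values were seen, read 4.6 and 35.5 in the supporting layer against 147 and 163 in the hair layer. The layers did not overlap, but the 2 supporting layer arrays differed widely, the lower of them being not above background, and the change of -3.60 ± 1.15 was not called (adjusted p = 0.0641).

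Many of the PRPF proteins, though not all, belong to the tri-snRNP or to later steps of assembly. Human mutations in several PRPF genes cause retinitis pigmentosa. Of 9 tested members, each at its brightest probe, 0 were called higher in the supporting layer, 4 higher in the hair layer and 5 were not called, with a median change of -0.33. The 44.4% called toward the hair layer lies near the 37.2% of all tested genes, and 1 of the 4 is Prpf19, whose probes disagree. Prpf6, which bridges U5 and the U4/U6 pair, read 34.4 and 29.8 in the supporting layer, the second not above background, against 191 and 194 in the hair layer. Prpf4, a U4/U6 protein, read 44.9 and 42.0 in the supporting layer against 194 and 101 in the hair layer. Prpf8, the central U5 protein of the catalytic core, read 2712 and 2565 in the supporting layer against 3357 and 3257 in the hair layer. All 3 had separate layers, with a wide gap between the hair layer arrays for Prpf4. Their changes were -2.59 ± 0.10 for Prpf6 (adjusted p = 0.00142, limma), -1.69 ± 0.37 for Prpf4 (adjusted p = 0.0277) and -0.33 ± 0.08 for Prpf8 (adjusted p = 0.032). A second probe of Prpf4 had the same direction and was called (-2.46 ± 0.57).

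Prpf19, a ubiquitin ligase that activates the spliceosome, had probes called in opposite directions. The brighter read 34.3 and 30.9 in the supporting layer, not above background, against 42.9 and 41.1 in the hair layer, and was called toward the hair layer (-0.37 ± 0.09). The other read 33.3 and 33.1 in the supporting layer against 12.6 and 11.2 in the hair layer, not above background, and was called at least 2.07-fold higher in the supporting layer. The gene therefore has no settled direction, and its call above is that of 1 probe. Only the call of Prpf6 held when each array was left out. That of Prpf4 was lost without supporting layer replicate 1 (adjusted p = 0.0772) or replicate 2 (0.0861), and those of Prpf8 and Prpf19 without any 1 array (0.0511 to 0.14). With 1 array left out, 1 or 2 PRPF proteins were called higher in the hair layer. Without the filter on dim probes the count was 1, and with each array scaled to its median or with values as scaled by the scanner software it was 2. Among the 4 tested PRPF proteins of the tri-snRNP, Prpf4, Prpf6 and Prpf8 were higher in the hair layer and Prpf3 was not called (0.08 ± 0.11). These 3 of 4 stand beside 37.2% of all tested genes, and only the call of Prpf6 held throughout.

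The tested U2AF genes had 1 call, and U2af1, the small subunit, had no named probe. U2af2, the large subunit that binds the polypyrimidine tract, read 950.3 and 920 in the supporting layer against 848 and 933 in the hair layer, with overlap (0.07 ± 0.09, not called). U2af1l4, a relative of the small subunit, read 85.1 and 102 in the supporting layer against 159 and 152 in the hair layer. Its layers did not overlap, and its change of -0.74 ± 0.13 was called. That call was lost without hair layer replicate 1 (adjusted p = 0.0889) or replicate 2 (0.0784).

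RBM genes are named for an RNA-binding motif and hold unrelated roles in splicing, decay and editing. Of 19 tested members 7 were higher in the supporting layer, 5 were higher in the hair layer and 7 were not called. These 36.8% and 26.3% stand beside 28.2% and 37.2% of all tested genes. Rbm45, an RNA-binding protein found in neuronal inclusions in human motor neuron disease, read 2092 and 2044 in the supporting layer against 793 and 791 in the hair layer. Its arrays agree within a layer to a few percent and stand far apart between layers, at a change of 1.38 ± 0.07 (adjusted p = 0.00167, limma). Rbm34 read 286 and 294 in the supporting layer against 141 and 138 in the hair layer, a change of 1.05 ± 0.07, and its second probe had the same direction (1.65 ± 0.07). Rbm12 read 452 and 369 in the supporting layer against 178 and 194 in the hair layer, a change of 1.13 ± 0.14. Rbm43 read 41.3 and 44.6 in the supporting layer against 16.7 and 23.3 in the hair layer, a change of 1.12 ± 0.20. None of the 4 overlapped between layers, which adds no support, since they were chosen as called. The call of Rbm12 was lost without hair layer replicate 1 (adjusted p = 0.0571), and that of Rbm43 without supporting layer replicate 1 or 2 (0.0542 and 0.0656).

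Toward the hair layer the RBM calls were led by an epithelial regulator and by assembly factors. Rbm47, a splicing and RNA-editing cofactor of epithelia, read 77.1 and 75.5 in the supporting layer against 157 and 172 in the hair layer, a change of -1.11 ± 0.08. Rbm22, which sits at the catalytic centre, read 121 and 138 in the supporting layer against 257 and 249 in the hair layer, a change of -0.97 ± 0.10. Rbm17, or SPF45, an alternative 3′ splice site factor, read 221 and 211 in the supporting layer against 354 and 376 in the hair layer, a change of -0.75 ± 0.08. These 3 calls held when each array was left out. Rbm11 read 9.20 and 14.9 in the supporting layer, not above background, against 26.5 and 25.9 in the hair layer. It was called (adjusted p = 0.0332), but its hair layer signal lies under the lowest detected signal of the supporting layer arrays, 26.6 and 28.3, so no fold is given and detection in 1 layer is no evidence of a difference. The call was also lost without hair layer replicate 1 (0.119) or replicate 2 (0.15).

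The hair cell regulator Rbm24 was close to background. Its brighter probe read 3.57 and 5.09 in the supporting layer against 17.8 and 16.8 in the hair layer, and only the first hair layer array counted as detected. It was therefore not tested, and a signal of that size would not have been detected on the supporting layer arrays. Rbm38, its close relative, read 1.75 and 14.0 in the supporting layer against 19.3 and 13.9 in the hair layer, detected on the same single array. No difference was detectable for either.

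The RBFOX, CELF, MBNL, PTBP, ESRP and SRRM regulators, some restricted to a few tissues, held some of the larger changes among the members. Of 10 tested members 3 were higher in the supporting layer, 3 were higher in the hair layer and 4 were not called. Their 30.0% in each direction lie near the 28.2% and 37.2% of all tested genes. Calls of at least 2-fold made up 30.0%, against 33.6% of all tested genes. Rbfox1, which binds UGCAUG beside exons of neuronal and muscle genes, read 67.7 and 61.3 in the supporting layer against 289 and 275 in the hair layer. Celf5, a CELF protein expressed mainly in brain, read 3.87 and 3.40 in the supporting layer, not above background, against 108 and 103 in the hair layer. Esrp1, the epithelial splicing regulator, read 108 and 116 in the supporting layer against 259 on hair layer array 2, its spot on array 1 having been left out as contaminated. All 3 were higher on each hair layer array that gave a value. The change was -2.13 ± 0.09 for Rbfox1 (adjusted p = 0.00148, limma) and -1.21 ± 0.11 for Esrp1 (adjusted p = 0.0121). With 1 value in the hair layer, the spread for Esrp1 comes from the supporting layer arrays and limma's prior alone, and leaving out arrays gives no check of its call. Celf5 was higher in the hair layer, at least 3.83-fold, and passed the filter on detection only through that layer. The other probes of Celf5, and the second probe of Rbfox1, were not above background on any array that gave a value. The call of Rbfox1 held when each array was left out.

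Neuron markers, which bear on Rbfox1 and Celf5, had a summed intensity of 704 and 765 in the supporting layer against 576 and 597 in the hair layer, over 6 tested of the 15 listed. All 6 were detected on both hair layer arrays and 4 on each supporting layer array. By call, 3 were higher in the supporting layer (Prph, Gap43 and Uchl1) and 2 in the hair layer (Nefl and Nefm). Prph made up the largest part of the sum, at 485 and 531 in the supporting layer against 337 and 326 in the hair layer. Nefl and Nefm were not above background in the supporting layer. Nefl read 19.7 and 6.45 there against 76.6 and 98.8 in the hair layer. The sum therefore gives no direction for the neuron markers as a set. The part of nerve endings in the 2 regulators was not tested.

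Celf1, Ptbp1 and Mbnl1, which are expressed in many tissues, were higher in the supporting layer. Celf1 read 127 and 147 in the supporting layer against 69.0 and 85.1 in the hair layer, a change of 0.84 ± 0.16, and its second probe was at least 3.91-fold higher in the supporting layer. Ptbp1, which represses neuronal exons, read 47.1 and 46.8 in the supporting layer against 30.6 and 34.7 in the hair layer, a change of 0.53 ± 0.10. Mbnl1 read 1068 and 1111 in the supporting layer against 901 and 889 in the hair layer, a change of 0.28 ± 0.07, with a second probe at 1.17 ± 0.22. None of the 3 overlapped between layers, and each lost its call when some of the arrays were left out. That of Celf1 was lost without hair layer replicate 1 (adjusted p = 0.0729) or supporting layer replicate 2 (0.0619), that of Ptbp1 without any array but hair layer replicate 2 (0.0605 to 0.0638) and that of Mbnl1 without any 1 array (0.0824 to 0.129).

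Celf2 read 33.5 and 109 in the supporting layer against 10.8 and 17.7 in the hair layer, where it was not above background. The layers did not overlap, but the supporting layer arrays lay far apart, and the difference was not called (adjusted p = 0.0729). It was called with each array scaled to its median (0.000181), with the scanner software's scaling (3.95e-06), with an intensity trend (0.0238), with the replicate block (0.0368) and without supporting layer replicate 1 (0.0218), and not in the other 7 settings that gave a value (0.057 to 0.252). Ptbp3 (0.29 ± 0.09), Mbnl2 (0.19 ± 0.08) and Srrm2, a scaffold of nuclear speckles (-0.04 ± 0.07), were not called, and the sign for Srrm2 turned with each array scaled to its median (0.033) and with the values the scanner software had scaled (0.067). Rbfox2, Nova1, Ptbp2, Celf3, Celf6, Esrp2, Mbnl3 and Srrm1 had no tested probe. Rbfox3, Nova2, Celf4 and U2af1 had no named probe.

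**Figure D3:**
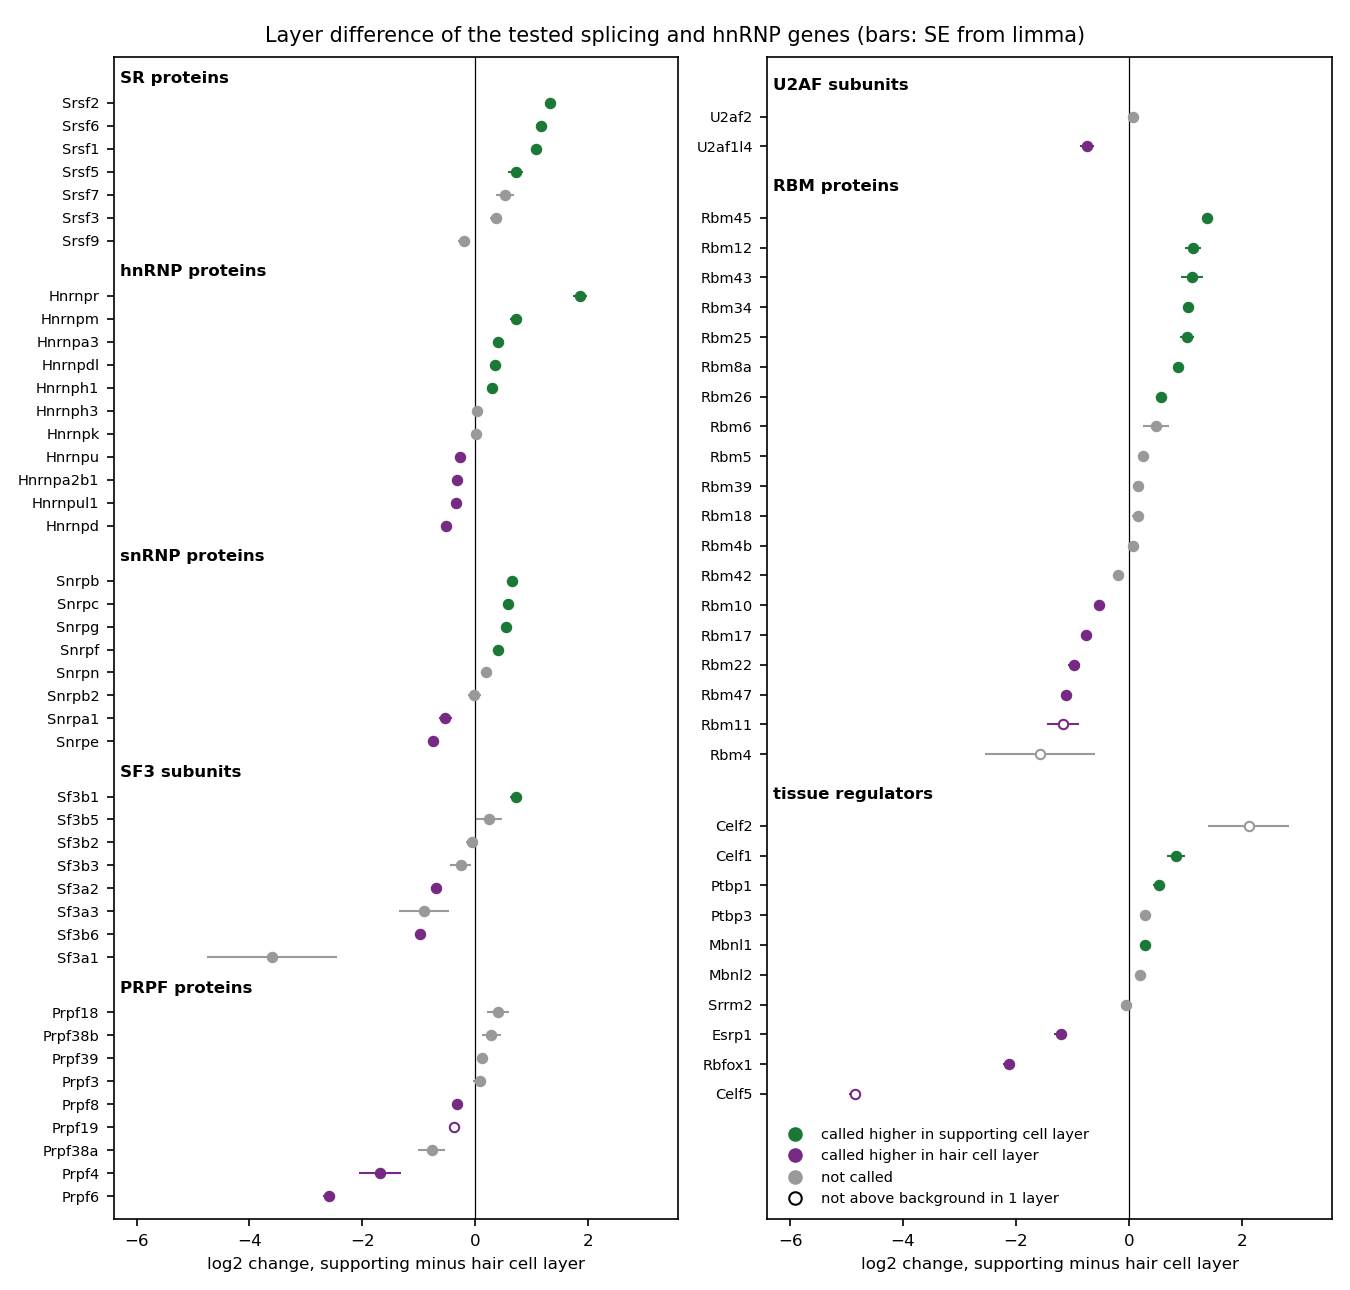
Change of each of the 74 tested members, supporting minus hair layer, on the log2 scale at the brightest probe, with the SE from limma as bars, by family; green is called higher in the supporting layer, purple higher in the hair layer, grey not called, and open symbols were not above background in 1 layer, where the fitted change is no measure of size. The SR proteins lie mostly to the right of 0, Prpf6, Prpf4, Rbfox1 and Celf5 far to the left, and most hnRNP and snRNP proteins within 1 unit of 0.

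Where a gene had several probes they mostly gave 1 direction. Of 20 members with more than 1 tested probe 16 had all probes on 1 side of 0 and 4 did not: Prpf19, Srsf1, Hnrnpa3 and Snrpb2, of which Prpf19 alone had both directions called. The size often differed. Rbm5, a regulator of apoptosis genes' splicing that is named here after its values were seen, was not called at its brighter probe (0.24 ± 0.08), while its other probe read 1074 and 1208 in the supporting layer against 335 and 336 in the hair layer and was called (1.76 ± 0.09). Rbm39, chosen in the same way, showed the same pattern, with 0.17 ± 0.08 not called and 0.86 ± 0.08 called. Whether such probes read different transcripts of a gene was not tested.

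**Figure D4:**
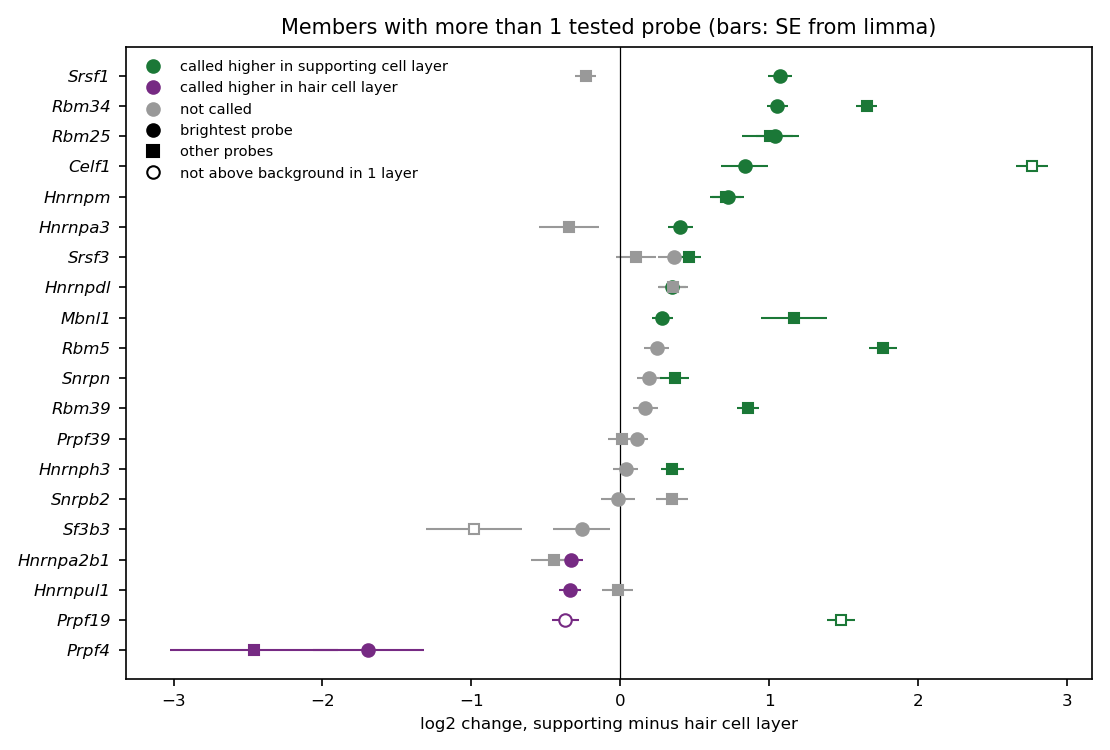
Change, supporting minus hair layer, on the log2 scale with its SE from limma, of every tested probe of the 20 members with more than 1; circles are the brightest probe, squares the others, and open symbols were not above background in 1 layer. For Prpf19 the 2 probes are called on opposite sides of 0, and for Celf1, Mbnl1, Rbm5, Rbm34 and Rbm39 the dimmer probe lies farther to the right than the brightest.

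Splicing genes outside these families were also divided. Of 86 tested genes on 2 lists, 23 were higher in the supporting layer, 26 were higher in the hair layer and 37 were not called. Their 26.7% and 30.2% stand beside 28.2% and 37.2% of all tested genes, so the counts do not set these lists apart. The 49 calls became 32 without hair layer replicate 1 and 29 without replicate 2. Of 58 spliceosome and splicing genes 17 were higher in each layer (29.3%). Of 28 other RNA-binding proteins 6 were higher in the supporting layer (21.4%) and 9 in the hair layer (32.1%). Wbp4, which binds splicing factors through WW domains, read 479 and 439 in the supporting layer against 47.5 and 66.1 in the hair layer. Both supporting layer arrays lay several-fold above both hair layer arrays, a change of 3.03 ± 0.20. Crnkl1, a protein of the catalytic spliceosome, followed in the same direction (2.26 ± 0.18). Toward the hair layer the larger measured changes were Lsm4, of the ring on U6 (-2.05 ± 0.08), Tra2b, and Smn1, which loads Sm rings onto snRNA (-1.65 ± 0.09), and the cyclophilin Ppil1 was at least 2.08-fold higher there. Among the other RNA-binding proteins, Pabpn1 (1.27 ± 0.21), Ybx1 (0.97 ± 0.08), Tial1 (0.96 ± 0.07) and Zranb2 (0.62 ± 0.08) were higher in the supporting layer. Syncrip, Raly (-1.56 ± 0.08), the paraspeckle protein Pspc1 (-1.29 ± 0.17) and Rbpms (-0.98 ± 0.11) were higher in the hair layer.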

How the data were processed

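The members and gene lists were chosen with earlier results of these data known. Per the labels' protocols, polyadenylated RNA of laser-captured tissue was amplified linearly into biotin-labelled cRNA. Per the file headers and values, the deposited scanner tables give each spot an intensity already corrected for local background and a quality flag. The series table the authors deposited was used only to pair rows with the platform annotation, since 1 column is shifted by rows; its values are ratios to each array's median signal. That annotation named 16915 of 33849 gene probes, and its symbols were brought up to date by gene identifier in RefSeq for GRCr8. Contaminated, irregular and failed spots were left out. Intensities were quantile-normalized over the 4 arrays, with values under 0.1 of the median set to that, and taken to log2. Probes detected on at least 2 of 4 arrays were tested with limma 3.58.1 in R 4.3.3 (lmFit and eBayes, no trend, two-sided, 2 arrays per layer, prior of 1.31 degrees of freedom), with p-values adjusted by Benjamini-Hochberg over these probes and a threshold of 0.05. The code was tested on simulated data. For a probe not above background on both arrays of a layer the lower limit of fold sets the brighter layer's mean against the higher of the lowest detected signal and the probe's own, per array. Such limits are approximate. Genes named were, per family, the 4 largest called changes in each direction, regulators known from hair cells or neurons, called members detected in 1 layer, and members with called probes of opposite sign; of the other splicing genes, the 4 largest in each direction per list. The arrays share replicate numbers between layers, but same-numbered arrays did not deviate together (correlation -0.0022), and the tests have no block. With 2 arrays per layer, that value cannot tell whether same-numbered arrays share animals. The number of arrays limits the precision.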

Additional observations from a re-analysis of the deposited data

How the results depend on the processing

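Each result was recomputed under 13 other settings. Of 40 called members named here, 9 kept their call in every setting that gave a value (Srsf1, Srsf2, Srsf6, Hnrnpr, Prpf6, Rbm34, Rbm45, Rbfox1 and Celf5), and 18 kept it in each fit with 1 array left out that gave a value. Celf5 among the 9 passed the detection filter only through the hair layer, and Esrp1 among the 18 has 1 hair layer value, so its call was not checked by leaving out arrays. Srsf1 among the 9 stands at its brightest probe in every setting but the mean over probes. Its other tested probe had a change of -0.23 and was not called. A layer left with 1 array is assumed to vary like the other. Why calls moved was not tested. The main counts were 11112 called probes, 24 members higher in the supporting layer, 21 members higher in the hair layer, 4 PRPF proteins higher in the hair layer and 49 other splicing genes called. Scaling each array to its median gave 8700, 15, 11, 2 and 31. The scanner software's own normalized intensity gave 6871, 10, 7, 2 and 20, and no filter on dim probes gave 6654, 9, 7, 1 and 21. The median change of the members was 0.23, 0.26 and 0.038 in these 3 settings, against 0.14. The median over all genes shifted by 0.09 and 0.12 under the 2 scalings, and the members' median stood 0.24 above it in both, as in the main setting, but 0.079 above it without the filter. With 1 array left out the counts were 7215 to 9994, 13 to 21, 11 to 17, 1 to 2 and 29 to 43, the SR proteins higher in the supporting layer were 3 to 5 of 7, and the median change was 0.077 to 0.15. The sign turned for Srrm2 (0.033 with median scaling and 0.067 with the scanner software's values), for Hnrnpk (-0.033 without hair layer replicate 2 and -0.0027 without supporting layer replicate 1, within -0.033 to 0.074 over the 4 such fits), neither called, and for Prpf19 (0.56 as the mean over its 2 probes, adjusted p = 0.0109, limma).

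The labels do not say whether the replicate numbers pair the arrays. With the replicate number as a block, 8756 probes and 37 other splicing genes were called. So were 20 members higher in the supporting layer, 13 members and 2 PRPF proteins higher in the hair layer, and 4 SR proteins. The normexp background correction was not run, since the files give no separate spot and background columns, nor was a slide block, each array being its own slide. Signal over background limits the 30 members with no tested probe.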
